A study of Sus scrofa with 11 samples.

Results

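Heart slices kept in culture for 10 days were compared with slices at day 0, gene by gene across the transcriptome. The comparison takes the 3 libraries labelled as stimulated culture at day 10 and the 3 libraries of day 0, which makes 6 of the 11 libraries of the series. The remaining libraries came from day 2 (2 libraries) and day 6 (3 libraries) of the same stimulated culture. All slices came from hearts of wild-type Yorkshire pigs aged 3 months and were frozen before total RNA was isolated and sequenced. The labels give day 0 no treatment and do not describe the stimulation. They do not say whether replicates came from separate animals, so p-values measure only the spread between these samples, which may be technical. The cultured groups carry the time and the stimulation together, and their effects cannot be told apart, since no unstimulated culture was analysed here. Values are FPKM as deposited, that is fragments scaled by gene length and library size. Fold changes are on the log2(FPKM + 1) scale, on which a low gene's ratio is understated, and are given with their SE from limma, a linear model with a shared estimate of the spread.

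A heart muscle cell, or cardiomyocyte, contracts by sliding thick myosin filaments along thin actin filaments inside the sarcomere, a cycle switched on by calcium released from the sarcoplasmic reticulum and paid for mostly by fatty acid oxidation in mitochondria. Fibroblasts, endothelial cells, smooth muscle cells, pericytes, macrophages and nerve fibres lie between the cardiomyocytes. Fibroblasts that turn into myofibroblasts make contractile actin, collagens and other extracellular matrix, which is the basis of cardiac fibrosis. In whole slices, fewer cells of a type and less RNA per cell cannot be told apart.

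Whole reads recovered from the FPKM values numbered 12624627 to 16404586 at day 0 and 11701694 to 16262525 at day 10. Day 0 replicate 2 stood apart. It had 4536 genes at 0, against 1580 and 1697 in the other day 0 libraries and 1771 to 2331 at day 10. Its log2 values correlated at 0.821 and 0.784 with the other day 0 libraries, which correlated at 0.955 with each other. Its median FPKM over all genes was 0.60, against 4.21 and 4.06 in the other day 0 libraries, so most counts of gene groups are given with and without it. The 10 most abundant genes took 25.1%, 30.9% and 28.2% of reads at day 0 and 13.8%, 12% and 11.6% at day 10. The median log2 fold change of all genes tested was 0.51, and it was 0.07 after median ratio scaling of the libraries, a shift of 0.44. Calls of higher genes that this scaling ends are named as such.

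Of 12625 genes tested, 2295 (18.2%) passed an adjusted p of 0.05 between day 10 and day 0. The higher genes numbered 1508 (11.9%) and the lower genes 787 (6.23%), and every call was at least 2-fold on the fitted scale. The 3 libraries of each day did not overlap for 25.1% of genes on the higher side and for 9.28% on the lower side. Most genes named below were chosen by small p or by this separation itself. Their lack of overlap follows largely from that choice and adds no support. The split depended on scaling. With median ratio scaling 911 genes were higher and 1244 lower, with quantile normalization 1356 and 1427, and without day 0 replicate 2 the numbers were 1435 and 1270. Without day 10 replicate 2 the total was 1462. On the fitted log2 scale the lower side reached further from 0. All 12 of its leading genes fell by more than 8, while SFRP2 had the highest value of the named higher genes at 7.59. That scale understates ratios of genes near 0 FPKM at day 0. By ratio of means AREG stood at 5.85e+05% and SFRP2 at 1.33e+05% of day 0, beside 0.0102% for MYH6 and 0.0938% for ACTA1. The scatter of all genes tested shows the ends of the fitted scale.

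**Figure D1:**
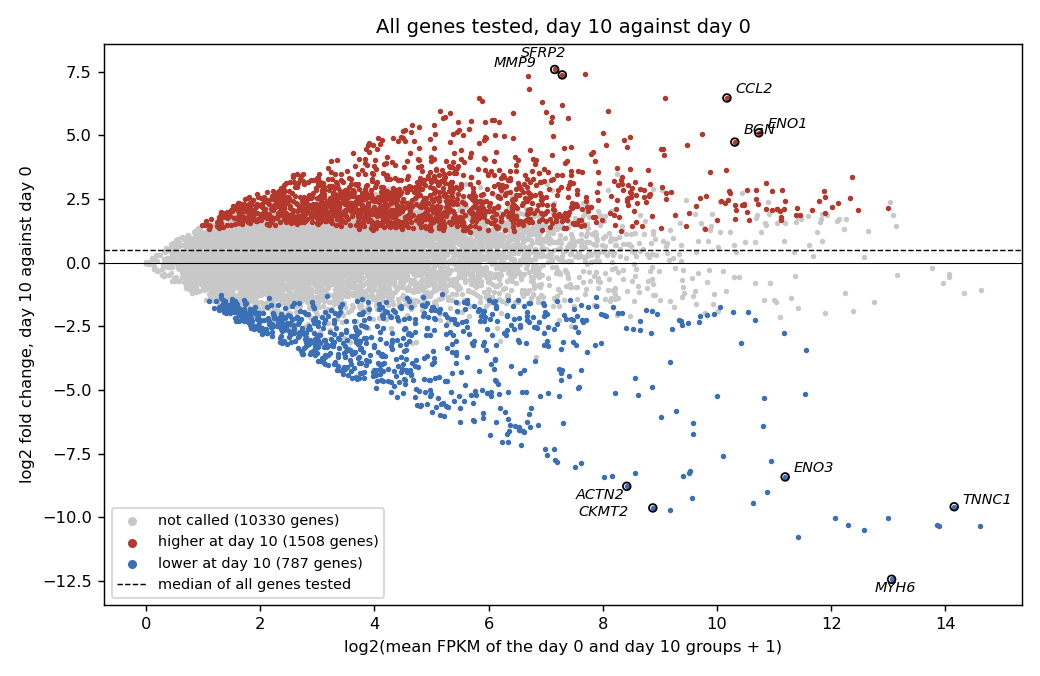
Log2 fold change between day 10 and day 0 (vertical axis) against the mean level of each of the 12625 genes tested, as log2(FPKM + 1) of the mean of both groups (horizontal axis). Red points are the 1508 genes called higher, blue points the 787 called lower, grey points were not called, and the dashed line is the median of all genes at 0.51. Heart muscle genes such as MYH6 and TNNC1 lie lowest, at high mean levels.

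Lists of genes for functions of heart tissue are described by how many tested members passed the threshold and by their median log2 fold change, beside 11.9% higher, 6.23% lower and a median of 0.51 over all genes. At the lower end lay thick filament, thin filament, ion channel and calcium handling genes. At the higher end lay oxidant response, collagen processing, inflammatory and stress response genes.

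**Figure D2:**
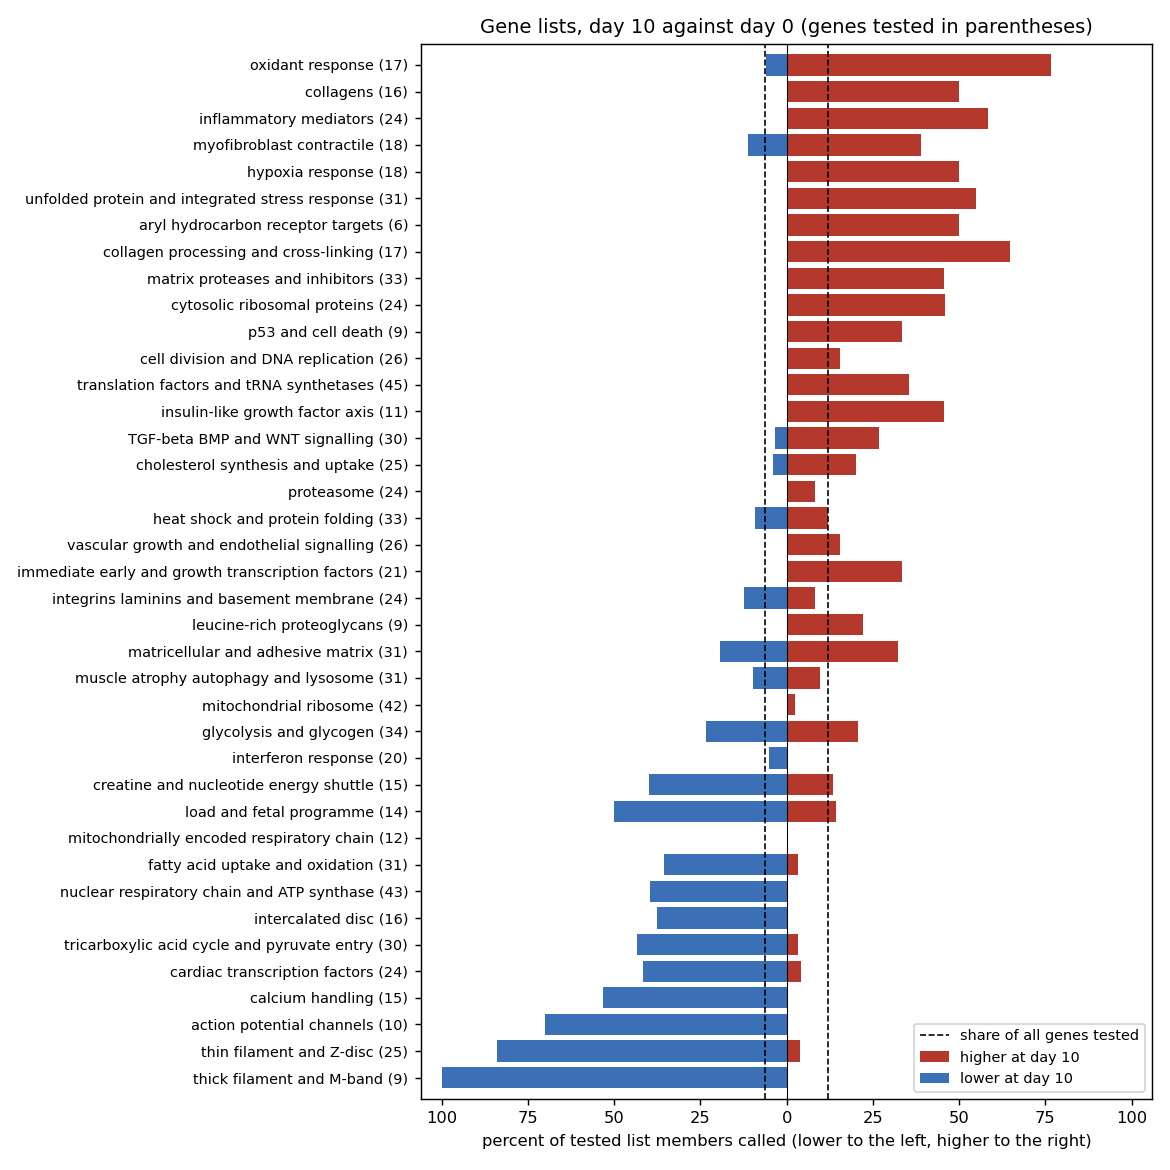
Share of the tested members of each gene list that were called lower (blue, to the left) or higher (red, to the right) at day 10, in percent, with the number tested in parentheses and lists ordered by median log2 fold change. Dashed lines mark the shares over all genes, 6.23% lower and 11.9% higher. All 9 thick filament genes were lower, and 13 of 17 oxidant response genes were higher.

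All 9 thick filament and M-band genes tested fell, with a median log2 fold change of -6.39, and all 9 also fell without day 0 replicate 2. Without day 10 replicate 1 the number was 8. MYH6 (ENSSSCG00000002029), the alpha myosin heavy chain that drives the power stroke, stood at 24753, 6878 and 19576 FPKM at day 0 and 2.53, 1.39 and 1.3 FPKM at day 10. Its day 10 mean was 0.0102% of the day 0 mean, and the lowest day 0 library lay far above every day 10 library (log2 fold change -12.44 ± 0.61, limma adjusted p = 2.21e-07). MYH6 may share reads with close myosin relatives. MYL3 (ENSSSCG00000011325), a myosin light chain of ventricle and slow muscle, was among the most abundant genes of day 0, at 17318, 57731 and 15949 FPKM at day 0 and 42.6, 22.1 and 6.01 FPKM at day 10. The groups did not overlap (log2 fold change -10.36 ± 0.80, limma adjusted p = 5.42e-06). MYBPC3 (ENSSSCG00000013236), the myosin-binding protein C that sets cross-bridge cycling, was at 1647, 437 and 1389.9 FPKM at day 0 and 0.346, 0.103 and 0.162 FPKM at day 10, under 1 FPKM in every day 10 library (log2 fold change -9.71 ± 0.63, limma adjusted p = 1.91e-06). MYOM2 (ENSSSCG00000015747), which ties myosin filaments at the M-band, was at 477, 156 and 457 FPKM at day 0 and 0.147, 0.313 and 0.263 FPKM at day 10. It fell as well (log2 fold change -8.03 ± 0.59, limma adjusted p = 4.05e-06).

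Of 25 thin filament and Z-disc genes, 21 fell and 1 rose, with a median of -5.44 (22 fell and 1 rose without day 0 replicate 2). Leaving out any other library of the 2 groups gave 19 lower. TNNT2 (ENSSSCG00000023031), the troponin subunit that anchors the calcium switch on tropomyosin, was at 11788, 12888 and 11725 FPKM at day 0 and 10.3, 7.12 and 5.26 FPKM at day 10. Its 3 day 0 values lay close together, and its day 10 mean was 0.0622% of theirs (log2 fold change -10.51 ± 0.71, limma adjusted p = 2.46e-06). TNNC1 (ENSSSCG00000011441), the calcium sensor of the troponin complex, was at 14479, 78131 and 16747 FPKM at day 0 and 82.8, 55.2 and 7.79 FPKM at day 10. Day 0 replicate 2 was the highest library here (log2 fold change -9.59 ± 0.99, limma adjusted p = 3.98e-05). ACTC1 (ENSSSCG00000004803), cardiac actin, was at 7126, 2639 and 6571 FPKM at day 0 and 4.64, 0.913 and 1.1 FPKM at day 10 (log2 fold change -10.78 ± 0.56, limma adjusted p = 2.42e-07). ACTA1 (ENSSSCG00000010190), skeletal muscle actin, was at 17508, 18609 and 12609 FPKM at day 0 and 23.6, 12.4 and 9.64 FPKM at day 10 (log2 fold change -10.04 ± 0.60, limma adjusted p = 9.33e-07). Actin genes are close relatives and may share reads, yet both were under 25 FPKM in every day 10 library. ACTN2 (ENSSSCG00000010144), the actin cross-linker of the Z-disc, fell below 1 FPKM, from 867, 406 and 775 FPKM at day 0 to 0.633, 0.430 and 0.361 FPKM at day 10 (log2 fold change -8.79 ± 0.46, limma adjusted p = 2.42e-07). TCAP (ENSSSCG00000017500), the titin cap at the Z-disc, was at 2498, 6236 and 2533 FPKM at day 0 and 21.2, 3.57 and 1.79 FPKM at day 10, with day 10 replicate 1 the highest of its group (log2 fold change -9.02 ± 0.83, limma adjusted p = 1.62e-05). The list's exception was TPM4 (ENSSSCG00000013849), a tropomyosin of non-muscle cells, at 111, 5.9 and 95 FPKM at day 0 and 1115, 580.4 and 1217 FPKM at day 10. It rose without overlap between the groups (log2 fold change 4.46 ± 0.90, limma adjusted p = 0.00446).

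**Figure D3:**
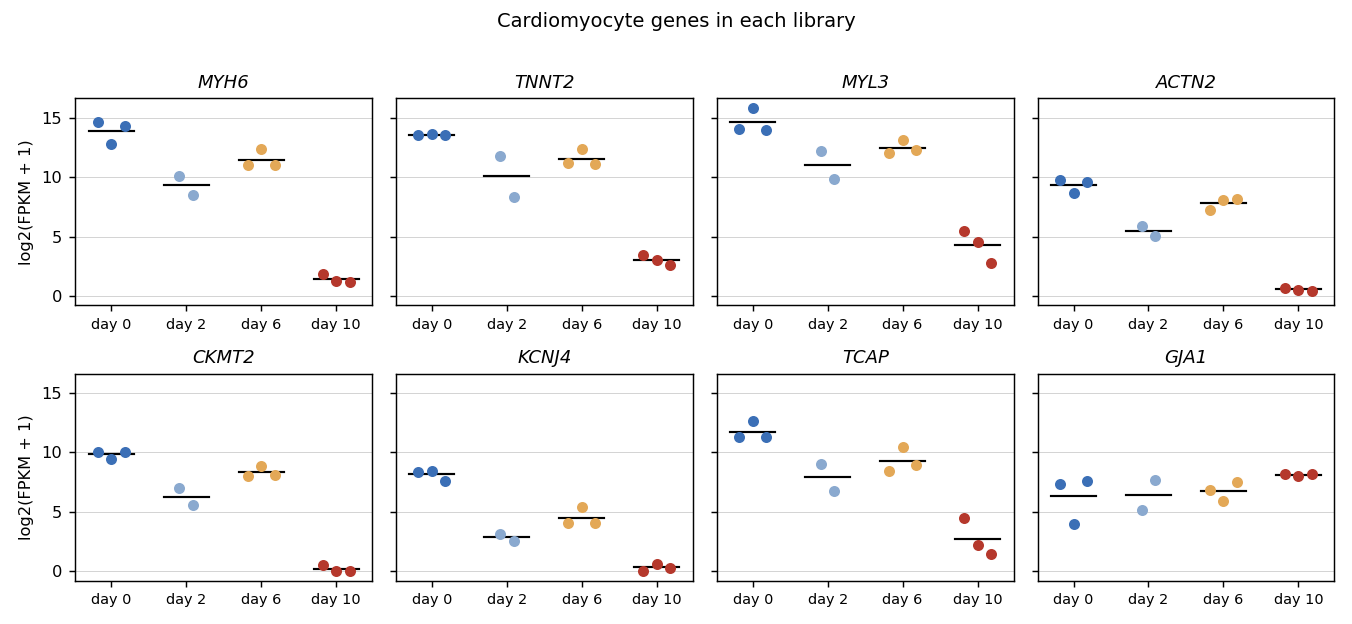
Levels of 8 cardiomyocyte genes in each of the 11 libraries, as log2(FPKM + 1) on the vertical axis, by day of culture on the horizontal axis; points are libraries and bars group means. In MYH6, TNNT2, MYL3, ACTN2, CKMT2, KCNJ4 and TCAP the 3 day 10 libraries lie below all 8 libraries of the earlier days. GJA1 lies at 264 to 287 FPKM at day 10, above its day 0 libraries.

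Calcium handling genes fell in 8 of 15 cases and rose in 0, with a median of -2.65 (11 fell without day 0 replicate 2). Leaving out day 0 replicate 1 or 3, or day 10 replicate 1 or 3, gave 6 lower. CAMK2A (ENSSSCG00000014443), a calmodulin-dependent kinase subunit, was at 72.7, 33.5 and 49.5 FPKM at day 0 and 0.0951, 0 and 0.0854 FPKM at day 10 (log2 fold change -5.57 ± 0.48, limma adjusted p = 1.18e-05). SRL (ENSSSCG00000007949), the sarcoplasmic reticulum protein sarcalumenin, was at 313, 75 and 184 FPKM at day 0 and 0.441, 0.582 and 1.0 FPKM at day 10 (log2 fold change -6.63 ± 0.62, limma adjusted p = 1.77e-05). Both genes were near or under 1 FPKM in every day 10 library. HRC (ENSSSCG00000003156), a calcium-binding protein of the sarcoplasmic reticulum, was at 282, 139 and 188 FPKM at day 0 and 1.48, 6.89 and 0.676 FPKM at day 10, with day 10 replicate 2 the highest of its group (log2 fold change -5.93 ± 0.63, limma adjusted p = 4.84e-05). TRDN (ENSSSCG00000027613), triadin, which links calsequestrin to the release channel, was at 64.5, 21 and 123 FPKM at day 0 and 0.776, 0 and 0 FPKM at day 10 (log2 fold change -5.54 ± 0.69, limma adjusted p = 0.000155). RYR2 (ENSSSCG00000010142), the calcium release channel itself, was at 102, 1.02 and 99.9 FPKM at day 0 and 0.0147, 0.533 and 0.176 FPKM at day 10. Day 0 replicate 2 lay close to day 10 here, so the call rested on the other day 0 libraries (log2 fold change -4.50 ± 1.17, limma adjusted p = 0.0185). Without day 0 replicate 1 or 3 its adjusted p was 0.066 and 0.0669, and without day 10 replicate 1 or 3 it was 0.0609 and 0.0599.

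Action potential channel genes fell in 7 of 10 cases and rose in 0, with a median of -4.03 (7 also fell without day 0 replicate 2). Leaving out any other library of the 2 groups gave 6 lower. KCNJ4 (ENSSSCG00000000106), an inward rectifier potassium channel, was at 329, 351 and 197 FPKM at day 0 and 0.051, 0.572 and 0.229 FPKM at day 10 (log2 fold change -7.81 ± 0.50, limma adjusted p = 1.86e-06). KCNIP2 (ENSSSCG00000010570), the subunit that shapes the transient outward current, was at 72, 53.6 and 60.7 FPKM at day 0 and 0.0316, 0.118 and 0.114 FPKM at day 10 (log2 fold change -5.85 ± 0.65, limma adjusted p = 6.86e-05). KCNH2 (ENSSSCG00000016448), the rapid delayed rectifier channel, was at 40.4, 21.3 and 25.3 FPKM at day 0 and 0.0909, 0.397 and 0.571 FPKM at day 10 (log2 fold change -4.44 ± 0.49, limma adjusted p = 6.74e-05). All 3 fell below 1 FPKM in each day 10 library. KCNE1 (ENSSSCG00000012049), an accessory subunit of the slow delayed rectifier, was at 217, 382 and 285 FPKM at day 0 and 5.44, 13.4 and 17 FPKM at day 10, and so kept a measurable level while it fell (log2 fold change -4.60 ± 0.63, limma adjusted p = 0.000332).

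Genes of the intercalated disc, the junction between cardiomyocytes, were divided. 6 of 16 fell and 0 rose, with a median of -1.52 (9 fell without day 0 replicate 2). Leaving out day 0 replicate 1 or 3, or day 10 replicate 1 or 2, gave 4 lower, and 1 rose without day 0 replicate 1. POPDC2 (ENSSSCG00000011894), a membrane protein of cardiac conduction, was at 84.3, 75.4 and 104 FPKM at day 0 and 0.292, 0 and 0.145 FPKM at day 10 (log2 fold change -6.27 ± 0.53, limma adjusted p = 9.59e-06). POPDC3 (ENSSSCG00000004367), its relative, was at 27.4, 18.3 and 30.9 FPKM at day 0 and 3.19, 0.166 and 0.278 FPKM at day 10, with day 10 replicate 1 the highest of its group (log2 fold change -3.82 ± 0.54, limma adjusted p = 0.00044). Of the desmosome genes in this list DSP and PKP2 fell. JUP, DSC2 and DSG2, chosen after their values were seen, did not pass, with log2 fold changes of 0.55, -2.07 and -1.75. DSP (ENSSSCG00000001025), desmoplakin, was at 80.9, 5.02 and 46.7 FPKM at day 0 and 0.0214, 0.00888 and 0.147 FPKM at day 10 (log2 fold change -4.76 ± 0.81, limma adjusted p = 0.00148). PKP2 (ENSSSCG00000000528), plakophilin 2, was at 56.5, 4.63 and 65.6 FPKM at day 0 and 0.685, 1.22 and 0.449 FPKM at day 10 (log2 fold change -3.99 ± 0.96, limma adjusted p = 0.0127), with an adjusted p of 0.0539 by limma voom on recovered reads. The gap junction gene GJA1 (ENSSSCG00000004241), connexin 43, behaved otherwise, at 158, 14.7 and 193 FPKM at day 0 and 287, 264 and 285 FPKM at day 10. The day 10 libraries were alike and above every day 0 library. Day 0 replicate 2 was far below its companions, and the difference did not pass (log2 fold change 1.83 ± 0.88, limma adjusted p = 0.168).

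Of 24 cardiac transcription factor genes, 10 fell and 1 rose, with a median of -1.85. The lower genes numbered 16 without day 0 replicate 2. They numbered 7 when day 0 replicate 1 or 3, or day 10 replicate 1 or 2, was left out. RXRG (ENSSSCG00000006328), a retinoid receptor, was at 49.7, 117 and 91.7 FPKM at day 0 and 0.17, 2.75 and 1.32 FPKM at day 10 (log2 fold change -5.25 ± 0.70, limma adjusted p = 0.00027). IRX4 (ENSSSCG00000017112), a homeobox factor of ventricular muscle, was at 13.3, 8.19 and 9.88 FPKM at day 0 and 0.31, 0 and 0.0397 FPKM at day 10 (log2 fold change -3.35 ± 0.47, limma adjusted p = 0.000407). IRX3 (ENSSSCG00000002831), a homeobox factor of the conduction system, was at 31.2, 10.8 and 24.2 FPKM at day 0 and 0.353, 0.925 and 1.24 FPKM at day 10 (log2 fold change -3.56 ± 0.51, limma adjusted p = 0.000436). None of these 3 overlapped between groups. ESRRA (ENSSSCG00000013028), an estrogen-related receptor that drives genes of oxidative metabolism, was at 128, 188 and 93.9 FPKM at day 0 and 24.4, 15.4 and 22 FPKM at day 10, a smaller drop (log2 fold change -2.64 ± 0.43, limma adjusted p = 0.00115). The coactivator that works with it, PPARGC1A (ENSSSCG00000029275), was at 8.82, 0.266 and 16.8 FPKM at day 0 and 0, 0.128 and 0 FPKM at day 10. Its low day 0 replicate 2 lay near the day 10 values (log2 fold change -2.54 ± 0.74, limma adjusted p = 0.0322). Without any of the 5 other libraries of both groups, PPARGC1A had an adjusted p of 0.0758 to 0.105: 0.0949 and 0.105 without day 0 replicates 1 and 3, and 0.0885, 0.0758 and 0.0933 without day 10 replicates 1, 2 and 3. NR2F1 (ENSSSCG00000014157), an orphan receptor of atrial muscle and other tissues, was the gene that rose, at 1.95, 1.36 and 1.42 FPKM at day 0 and 4.92, 9.3 and 9.03 FPKM at day 10 (log2 fold change 1.73 ± 0.44, limma adjusted p = 0.017). Its limma adjusted p was 0.0743 with median ratio scaling, and leaving out day 0 replicate 3, day 10 replicate 2 or day 10 replicate 3 gave 0.0532, 0.0648 and 0.0585.

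Genes known to respond to mechanical load or to return in the failing heart moved in both directions. 7 of 14 fell and 2 rose, the same numbers as without day 0 replicate 2, and 5 fell without day 10 replicate 1. NPPB (ENSSSCG00000003431), which encodes the natriuretic peptide used as a marker of heart failure, was at 135, 281 and 138 FPKM at day 0 and 1.23, 0.637 and 0.734 FPKM at day 10 and fell (log2 fold change -6.56 ± 0.67, limma adjusted p = 3.52e-05). CSRP3 (ENSSSCG00000013354), a stretch-linked protein of the Z-disc, was at 1177, 1629.7 and 1262 FPKM at day 0 and 13, 1.84 and 0.663 FPKM at day 10 (log2 fold change -8.38 ± 0.85, limma adjusted p = 3.54e-05). ANKRD1 (ENSSSCG00000010461), a load-responsive ankyrin repeat protein, was at 1376, 556 and 2572 FPKM at day 0 and 88.1, 1.27 and 19.3 FPKM at day 10, with a wide range among the day 10 libraries (log2 fold change -6.29 ± 1.11, limma adjusted p = 0.00189). The higher genes were UCHL1 (ENSSSCG00000022945), a ubiquitin hydrolase of neurons and remodelling muscle, and TMSB10 (ENSSSCG00000008245), an actin-sequestering thymosin. UCHL1 was at 2.97, 7.36 and 3.77 FPKM at day 0 and 213, 129 and 155 FPKM at day 10 (log2 fold change 4.91 ± 0.49, limma adjusted p = 2.92e-05). TMSB10 was at 673, 1180.5 and 535 FPKM at day 0 and 9160.2, 17258 and 3002 FPKM at day 10 and was among the most abundant genes at day 10 (log2 fold change 3.37 ± 0.65, limma adjusted p = 0.00347). With median ratio scaling TMSB10 had a limma adjusted p of 0.099.

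Transcripts of many genes of mitochondrial fuel use were lower. Among 31 genes of fatty acid uptake and oxidation 11 fell and 1 rose, with a median of -1.35. The lower genes numbered 17 with median ratio scaling and 19 without day 0 replicate 2. They numbered 8 without day 0 replicate 1 or day 10 replicate 2, and 8 when the fit held the compared groups alone. CPT1B (ENSSSCG00000022364), the muscle carnitine palmitoyltransferase that admits long-chain fatty acids to mitochondria, was at 234, 90.9 and 222 FPKM at day 0 and 0.814, 0.62 and 1.34 FPKM at day 10 (log2 fold change -6.47 ± 0.54, limma adjusted p = 9.46e-06). PLIN5 (ENSSSCG00000013513), a lipid droplet protein of oxidative tissue, was at 15.6, 12.8 and 18.4 FPKM at day 0 and 0, 0.136 and 0 FPKM at day 10 (log2 fold change -3.98 ± 0.39, limma adjusted p = 2.78e-05). ACAA2 (ENSSSCG00000004510), a thiolase of beta-oxidation, was at 190.1, 78.8 and 265 FPKM at day 0 and 8.27, 3.24 and 11.3 FPKM at day 10 (log2 fold change -4.35 ± 0.60, limma adjusted p = 0.000335). HADH (ENSSSCG00000009150), a dehydrogenase of the same pathway, was at 280.2, 159 and 283 FPKM at day 0 and 39, 26.6 and 51.5 FPKM at day 10 (log2 fold change -2.59 ± 0.46, limma adjusted p = 0.00209). CPT1B and PLIN5 thus stood near 0 FPKM, while ACAA2 and HADH were lower but present. Other carnitine genes of the list, chosen after their values were seen, did not fall as far as CPT1B. CPT1A, SLC25A20 and CPT2 did not pass, with log2 fold changes of 2.25, 0.76 and -0.26, and CRAT fell, with -2.52. ACSL4 (ENSSSCG00000012583), an acyl-CoA synthetase with a preference for polyunsaturated fatty acids, was the gene that rose, at 12.4, 1.45 and 19.5 FPKM at day 0 and 78.3, 91.6 and 99 FPKM at day 10 (log2 fold change 3.36 ± 0.83, limma adjusted p = 0.0145). Without day 10 replicate 3 its limma adjusted p was 0.0511.

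In the tricarboxylic acid cycle and pyruvate entry list 13 of 30 genes fell and 1 rose, with a median of -1.57. The lower genes numbered 21 both with median ratio scaling and without day 0 replicate 2. They numbered 11 without day 10 replicate 2, and 10 when the fit held the compared groups alone. PDK2 (ENSSSCG00000027198), a kinase that restrains pyruvate dehydrogenase, was at 179, 170.3 and 119.6 FPKM at day 0 and 3.69, 8.98 and 15.8 FPKM at day 10 (log2 fold change -4.07 ± 0.52, limma adjusted p = 0.000186). GOT1 (ENSSSCG00000010537), the cytosolic aminotransferase of the malate-aspartate shuttle, was at 358, 142 and 358 FPKM at day 0 and 10.2, 12 and 19.6 FPKM at day 10 (log2 fold change -4.20 ± 0.57, limma adjusted p = 0.000299). IDH2 (ENSSSCG00000001852), mitochondrial isocitrate dehydrogenase, was at 847, 902 and 644 FPKM at day 0 and 124, 85.2 and 150.2 FPKM at day 10 (log2 fold change -2.75 ± 0.40, limma adjusted p = 0.000547). None of these 3 genes overlapped between the groups. ME1 (ENSSSCG00000004454), the cytosolic malic enzyme that makes NADPH, rose, at 0.573, 0.0361 and 0.569 FPKM at day 0 and 8.97, 8.78 and 11.6 FPKM at day 10 (log2 fold change 2.97 ± 0.49, limma adjusted p = 0.0012).

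Nuclear genes of the respiratory chain and ATP synthase fell in 17 of 43 cases and rose in 0, with a median of -1.49 (19 fell without day 0 replicate 2, and 10 without day 10 replicate 3). SDHA (ENSSSCG00000020686), the catalytic subunit of complex II, was at 359.6, 288 and 286 FPKM at day 0 and 52.1, 41.3 and 69.6 FPKM at day 10 (log2 fold change -2.52 ± 0.39, limma adjusted p = 0.000755). COX5A (ENSSSCG00000024316), of complex IV, was at 934, 1290.0 and 831 FPKM at day 0 and 222, 109 and 173 FPKM at day 10 (log2 fold change -2.63 ± 0.43, limma adjusted p = 0.00109). NDUFA9 (ENSSSCG00000000719), of complex I, was at 291, 421 and 296 FPKM at day 0 and 88.3, 49.6 and 63.7 FPKM at day 10 (log2 fold change -2.32 ± 0.39, limma adjusted p = 0.00142). NDUFA4 (ENSSSCG00000024313), a subunit associated with complex IV, was at 1976, 2553 and 2755 FPKM at day 0 and 584, 192 and 167 FPKM at day 10, with day 10 replicate 1 the highest of its group (log2 fold change -3.17 ± 0.56, limma adjusted p = 0.00187). Of 12 genes of the mitochondrial genome 0 passed, although all 12 log2 fold changes were below 0. Their median was -1.3, close to the -1.49 of the nuclear genes. At an unadjusted p of 0.05, 5 of the 12 were lower in limma, and limma voom on recovered reads called 1. Without day 0 replicate 2, 6 of the 12 were called lower, with a median of -2.12 against -1.35 for the nuclear genes. With median ratio scaling 4 of the 12 were called lower. Their share of the reads was 16.55%, 4.53% and 22.1% before culture and 9.85%, 4.04% and 3.53% after 10 days. The low day 0 library, replicate 2, was thus within the day 10 range. Of 42 mitochondrial ribosomal protein genes, 1 rose and 0 fell, MRPS34, at 37.9, 98.9 and 27.7 FPKM at day 0 and 239, 245 and 122 FPKM at day 10 (log2 fold change 2.01 ± 0.54, limma adjusted p = 0.0217). Without day 0 replicate 2, 2 of the 42 rose. With median ratio scaling the limma adjusted p of MRPS34 was 0.343, and it was 0.0639 and 0.0762 without day 0 replicates 1 and 3 and 0.0761 and 0.0772 without day 10 replicates 1 and 2.

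Glycolysis and glycogen genes moved in both directions. Of 34 tested, 7 rose and 8 fell, and the lower genes numbered 13 without day 0 replicate 2. The median was 0.04, and -0.69 with median ratio scaling and -0.71 without day 0 replicate 2. The lower genes named are those of smallest p. ENO3 (ENSSSCG00000017904), muscle enolase, was at 2689, 8587 and 2746 FPKM at day 0 and 24.3, 9.42 and 4.99 FPKM at day 10 (log2 fold change -8.42 ± 0.74, limma adjusted p = 1.28e-05). PGAM2 (ENSSSCG00000016720), muscle phosphoglycerate mutase, was at 618, 3034 and 724 FPKM at day 0 and 2.8, 2.01 and 3.12 FPKM at day 10 (log2 fold change -8.26 ± 0.74, limma adjusted p = 1.35e-05). PYGM (ENSSSCG00000013022), muscle glycogen phosphorylase, was at 247, 222 and 156 FPKM at day 0 and 0.195, 1.89 and 2.61 FPKM at day 10 (log2 fold change -6.47 ± 0.55, limma adjusted p = 1.11e-05). PYGB (ENSSSCG00000022815), the brain-type phosphorylase, which heart also expresses, was at 442, 142 and 351 FPKM at day 0 and 2.82, 2.01 and 3.01 FPKM at day 10 (log2 fold change -6.29 ± 0.55, limma adjusted p = 1.28e-05). All 4 were under 25 FPKM in every day 10 library. Among the higher genes, ENO1 (ENSSSCG00000022343), the enolase of most tissues, was at 98.5, 119.8 and 72.8 FPKM at day 0 and 3665, 2888 and 3362 FPKM at day 10 (log2 fold change 5.10 ± 0.40, limma adjusted p = 5.5e-06). LDHA (ENSSSCG00000013366), which converts pyruvate to lactate, was at 68, 18 and 83.3 FPKM at day 0 and 2130.1, 1728 and 1116 FPKM at day 10 (log2 fold change 5.06 ± 0.55, limma adjusted p = 6.16e-05). Each day 10 value of ENO1 and LDHA was above every day 0 value. SLC2A4, the insulin-responsive glucose transporter, had 486 reads at day 0 and 0 reads at day 10. That made it at least 161-fold lower, with a floor of 3 reads over the group, which covers counting error only; SLC2A4 was chosen after its values were seen.

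Of 15 genes that move high-energy phosphate 6 fell and 2 rose (6 and 3 without day 0 replicate 2). Leaving out day 0 replicate 1 or day 10 replicate 2 gave 4 lower. CKMT2 (ENSSSCG00000014128), the creatine kinase of muscle mitochondria, was at 1054, 696 and 1064 FPKM at day 0 and 0.486, 0 and 0.0437 FPKM at day 10 (log2 fold change -9.64 ± 0.47, limma adjusted p = 2.21e-07). SLC25A4 (ENSSSCG00000015790), the adenine nucleotide carrier of heart and muscle, was at 2964, 4769 and 2835 FPKM at day 0 and 61.8, 41.6 and 22.7 FPKM at day 10 (log2 fold change -6.42 ± 0.57, limma adjusted p = 1.35e-05). AK1 (ENSSSCG00000005627), muscle adenylate kinase, was at 194, 543 and 129 FPKM at day 0 and 4.41, 6.48 and 39.8 FPKM at day 10, with day 10 replicate 3 the highest of its group (log2 fold change -4.34 ± 0.80, limma adjusted p = 0.00249). SLC6A8 (ENSSSCG00000012771), the creatine transporter, was at 70.4, 36.6 and 39.2 FPKM at day 0 and 5.97, 11.7 and 13.7 FPKM at day 10 and fell less (log2 fold change -2.13 ± 0.45, limma adjusted p = 0.00612). The higher genes were SLC25A5 and CKB. SLC25A5 (ENSSSCG00000012623), the more widely expressed carrier, was at 36, 16.2 and 38.5 FPKM at day 0 and 348, 139 and 218 FPKM at day 10 (log2 fold change 2.91 ± 0.48, limma adjusted p = 0.00125). CKB (ENSSSCG00000021220), brain-type creatine kinase, was at 22, 26.5 and 14 FPKM at day 0 and 160.2, 113 and 159 FPKM at day 10 (log2 fold change 2.76 ± 0.51, limma adjusted p = 0.00266). With median ratio scaling CKB had a limma adjusted p of 0.0871.

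Pairs of related genes, chosen after their values were seen, show relative levels within a library, where scaling between libraries plays no part. ENO1 made up 3.53%, 1.38% and 2.58% of the summed FPKM of ENO1 and ENO3 at day 0 and 99.3%, 99.7% and 99.9% at day 10. It had been at 65.4% and 91.4% at day 2 and at 57.7%, 39.1% and 50% at day 6, so its rise was not steady. SLC25A5 made up 1.2%, 0.338% and 1.34% of its pair with SLC25A4 at day 0 and 84.9%, 76.9% and 90.6% at day 10. TPM4 made up 1.96%, 0.113% and 1.65% of its pair with TPM1 at day 0 and 70.0%, 65.4% and 57.5% at day 10. The shares show unequal change within a pair and not the change of either gene.

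**Figure D4:**
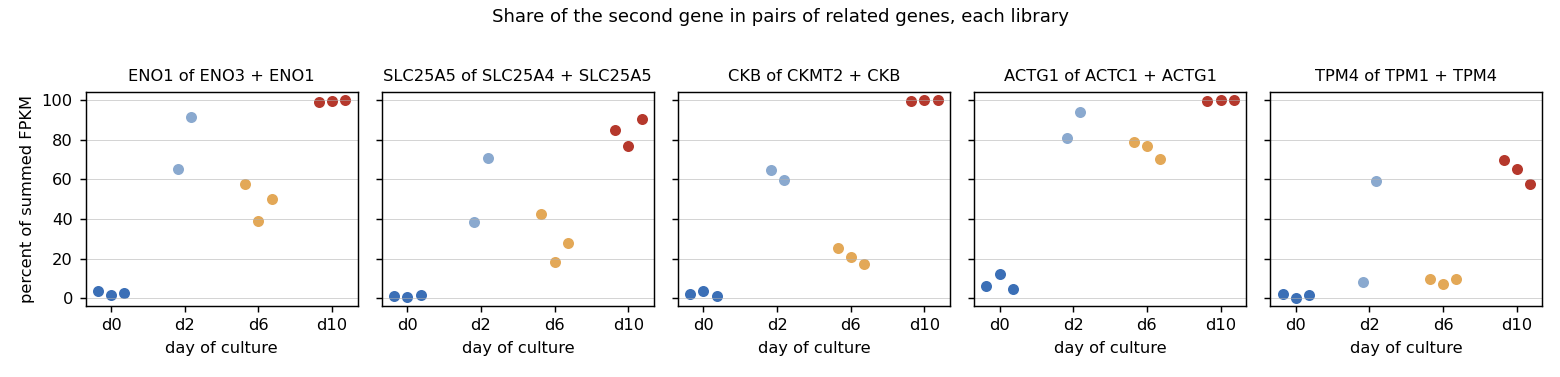
Share of the more widely expressed gene in the summed FPKM of 5 pairs of related genes, in percent on the vertical axis, for each of the 11 libraries by day of culture on the horizontal axis; points are libraries. In all 5 pairs every day 10 library lies above every day 0 library. ENO1 runs from 1.38% to 3.53% at day 0 and from 99.3% to 99.9% at day 10.

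Collagen genes were higher in 8 of 16 cases and lower in 0, with a median of 2.71, but this count depended on single libraries. Leaving out day 0 replicate 2 gave 3, leaving out day 0 replicate 3 gave 4, and leaving out either of day 10 replicates 2 and 3 gave 1, while median ratio scaling gave 4. Within the day 10 group all 16 genes were highest in replicate 3. COL6A1 (ENSSSCG00000022506), a chain of the microfibrillar collagen VI, shows this, at 119.8, 26.6 and 58.5 FPKM at day 0 and 111, 586 and 1283 FPKM at day 10. Day 10 replicate 1 lay within the day 0 range (log2 fold change 2.91 ± 0.77, limma adjusted p = 0.0199). Without day 10 replicate 2 or 3 its limma adjusted p was 0.0707 and 0.0864. COL6A2 (ENSSSCG00000028022), its partner chain, was at 165, 93.7 and 83.4 FPKM at day 0 and 229.7, 927 and 1812 FPKM at day 10 (log2 fold change 2.73 ± 0.64, limma adjusted p = 0.0107), with an adjusted p of 0.068 under median ratio scaling. COL8A1 (ENSSSCG00000011973), a short-chain collagen of vessel walls, was at 23.3, 3.76 and 26.8 FPKM at day 0 and 58.6, 187 and 484 FPKM at day 10 (log2 fold change 3.57 ± 0.95, limma adjusted p = 0.0204). Its adjusted p was 0.0621 and 0.0955 without day 10 replicates 2 and 3. COL3A1 (ENSSSCG00000016034), a fibrillar collagen of the heart's interstitium, was at 1146, 92.5 and 934 FPKM at day 0 and 961, 2656 and 5604 FPKM at day 10 and did not pass (log2 fold change 2.39 ± 0.88, limma adjusted p = 0.0781). Its groups overlapped. Without day 0 replicate 1 its adjusted p was 0.0467.

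Genes that process and cross-link collagen gave a firmer count. 11 of 17 rose and 0 fell, with a median of 2.00 (10 without day 0 replicate 2 and 7 with median ratio scaling). P4HA3 (ENSSSCG00000014840), a catalytic subunit of prolyl hydroxylase, was at 0.034, 0 and 0.202 FPKM at day 0 and 36.2, 17.7 and 29.5 FPKM at day 10 (log2 fold change 4.69 ± 0.50, limma adjusted p = 5.26e-05). FKBP10 (ENSSSCG00000017422), a collagen chaperone, was at 13.4, 11.3 and 8.32 FPKM at day 0 and 113, 169.8 and 364 FPKM at day 10 (log2 fold change 4.02 ± 0.56, limma adjusted p = 0.000365). PCOLCE2 (ENSSSCG00000011683), an enhancer of procollagen cleavage, was at 4.6, 1.3 and 8.06 FPKM at day 0 and 85.7, 52.9 and 90.2 FPKM at day 10 (log2 fold change 3.94 ± 0.57, limma adjusted p = 0.000511). BMP1 (ENSSSCG00000009620), the procollagen C-proteinase itself, was at 20.9, 9.81 and 9.92 FPKM at day 0 and 60.4, 142 and 249.5 FPKM at day 10 (log2 fold change 3.24 ± 0.59, limma adjusted p = 0.00236). None of the 4 overlapped between groups, but they were picked by smallest p. Of 9 leucine-rich proteoglycan genes 2 rose and 0 fell, with a median of 0.65. The numbers were 2 higher and 2 lower without day 0 replicate 2, with a median of -0.13, and with median ratio scaling they were again 2 and 2, with a median of -0.08. BGN (ENSSSCG00000012766), biglycan, was at 121, 70.8 and 41.5 FPKM at day 0 and 735, 2099 and 4559 FPKM at day 10 (log2 fold change 4.73 ± 0.64, limma adjusted p = 0.000301). FMOD (ENSSSCG00000015270), fibromodulin, was at 9.79, 2.5 and 5.47 FPKM at day 0 and 91.8, 68.4 and 183 FPKM at day 10 (log2 fold change 4.08 ± 0.56, limma adjusted p = 0.000347).

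Matricellular and adhesive matrix genes moved in both directions, with 10 of 31 higher and 6 lower. The numbers were 7 and 8 without day 0 replicate 2. The higher genes numbered 6 without day 10 replicate 2 and 6 without day 10 replicate 3, and the lower genes 3 without each of day 0 replicate 1, day 10 replicate 1 and day 10 replicate 2. POSTN (ENSSSCG00000009361), periostin, a product of activated fibroblasts, was at 17.5, 1.17 and 41.7 FPKM at day 0 and 209, 183 and 503 FPKM at day 10 (log2 fold change 4.49 ± 0.88, limma adjusted p = 0.00383). CTHRC1 (ENSSSCG00000006051), a secreted protein of activated fibroblasts, was at 2.63, 3.39 and 3.37 FPKM at day 0 and 28.3, 45.8 and 42.8 FPKM at day 10 (log2 fold change 3.25 ± 0.44, limma adjusted p = 0.000319). TNC (ENSSSCG00000005494), tenascin C, which appears in wounded matrix, was at 1.93, 0.0529 and 0.529 FPKM at day 0 and 9.45, 77.7 and 186 FPKM at day 10, and day 10 replicate 1 was by far the lowest of its group (log2 fold change 5.0 ± 0.94, limma adjusted p = 0.00285). CCN4 (ENSSSCG00000005946), a WNT-inducible matricellular protein, was at 0.68, 0.15 and 0.0576 FPKM at day 0 and 6.61, 12.8 and 11.8 FPKM at day 10 (log2 fold change 3.12 ± 0.44, limma adjusted p = 0.000387). FN1 (ENSSSCG00000016174), fibronectin, was at 39.5, 1.94 and 31.8 FPKM at day 0 and 50.1, 323 and 939 FPKM at day 10 (log2 fold change 3.99 ± 1.10, limma adjusted p = 0.0253). The call of FN1 was lost without day 0 replicate 2 (adjusted p = 0.0534), day 10 replicate 2 (0.0781) or day 10 replicate 3 (0.116), each by limma. The lower side held FBLN5 (ENSSSCG00000002444), an organizer of elastic fibres, at 144, 74.9 and 114 FPKM at day 0 and 3.28, 9.82 and 20.4 FPKM at day 10 (log2 fold change -3.44 ± 0.63, limma adjusted p = 0.00244). VTN (ENSSSCG00000027801), vitronectin, was at 6.88, 6.9 and 5.44 FPKM at day 0 and 0.148, 0.307 and 0.177 FPKM at day 10 (log2 fold change -2.61 ± 0.39, limma adjusted p = 0.000661).

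**Figure D5:**
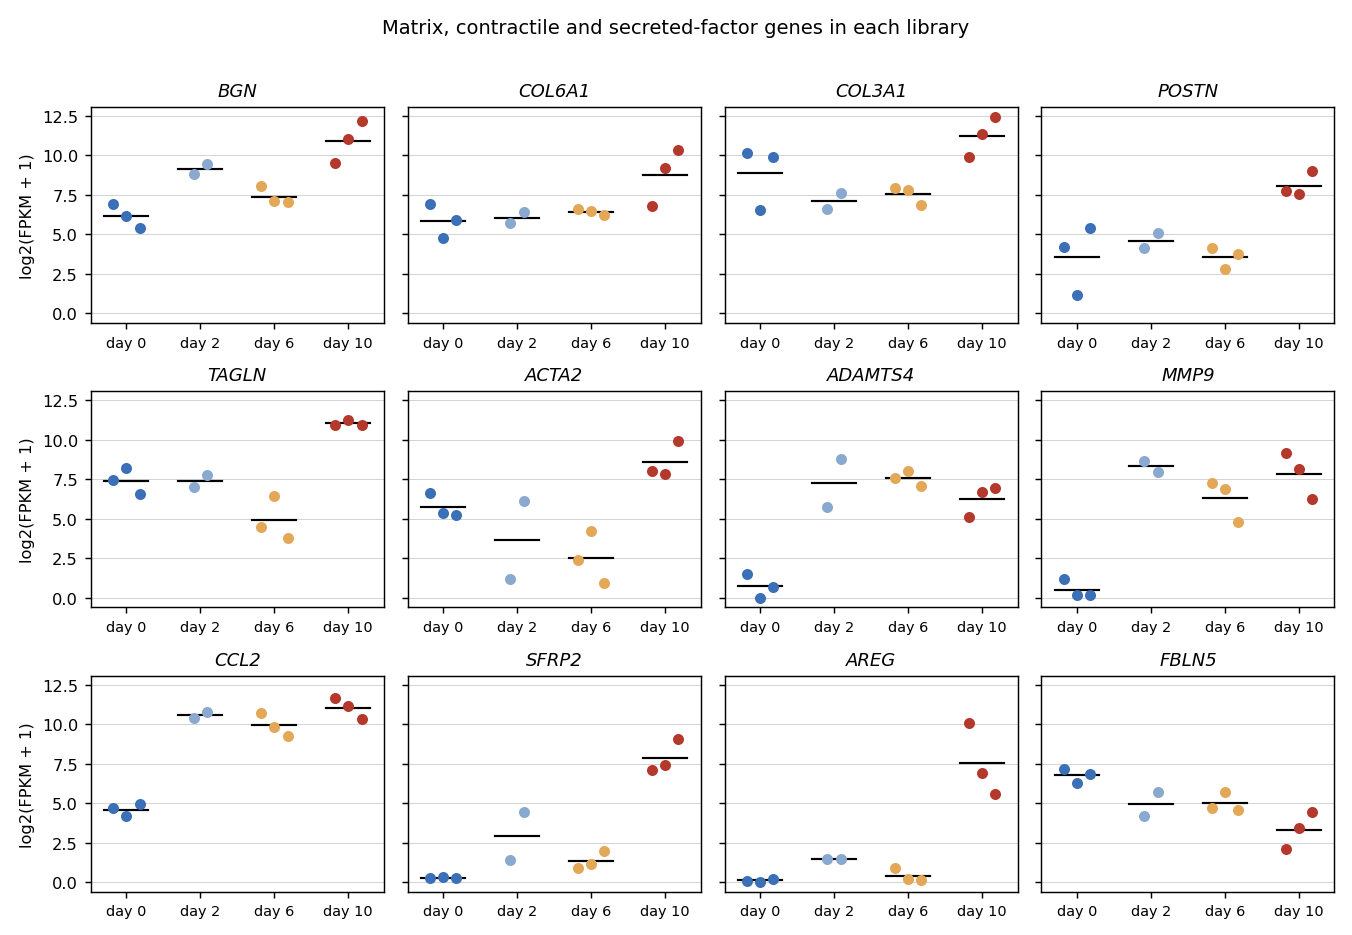
Levels of 12 matrix, contractile and secreted-factor genes in each of the 11 libraries, as log2(FPKM + 1) on the vertical axis, by day of culture on the horizontal axis; points are libraries and bars group means. TAGLN, SFRP2 and AREG lie above all earlier libraries at day 10, the day 2 values of CCL2 and MMP9 lie within their day 10 range, and COL6A1 spreads from 111 to 1283 FPKM among the day 10 libraries.

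Genes of matrix proteases and their inhibitors rose in 15 of 33 cases and fell in 0, with a median of 1.86 (15 also without day 0 replicate 2). MMP9 (ENSSSCG00000007436), a gelatinase, was at 1.23, 0.0945 and 0.097 FPKM at day 0 and 578, 281 and 73.9 FPKM at day 10 (log2 fold change 7.37 ± 0.77, limma adjusted p = 4.09e-05). CTSL (ENSSSCG00000010948), a lysosomal cysteine protease that can be secreted, was at 0.532, 0.176 and 1.08 FPKM at day 0 and 127, 43.7 and 22.7 FPKM at day 10 (log2 fold change 5.05 ± 0.62, limma adjusted p = 0.000141). ADAMTS4 (ENSSSCG00000006359), an aggrecanase, was at 1.83, 0 and 0.609 FPKM at day 0 and 33.9, 101 and 123 FPKM at day 10 (log2 fold change 5.52 ± 0.74, limma adjusted p = 0.000299). MMP9 and CTSL were highest in day 10 replicate 1, and ADAMTS4 in day 10 replicate 3. Interstitial collagenase MMP1, chosen after its values were seen, had 0 reads at day 0 and 493 at day 10, at least 166-fold higher with a floor of 3 reads over the group.

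Of 18 contractile and cytoskeletal genes linked to myofibroblasts, 7 rose and 2 fell, with a median of 2.49 (again 7 and 2 without day 0 replicate 2). The higher genes numbered 5 without day 10 replicate 3 and 5 with median ratio scaling. TAGLN (ENSSSCG00000015073), transgelin, an actin-binding protein of smooth muscle and myofibroblasts, was at 174, 297 and 92.9 FPKM at day 0 and 1946, 2395 and 1971 FPKM at day 10. The day 10 libraries were close to each other (log2 fold change 3.63 ± 0.64, limma adjusted p = 0.002). ACTA2 (ENSSSCG00000010447), smooth muscle actin, was at 99.7, 40.1 and 36.7 FPKM at day 0 and 264, 230.2 and 959 FPKM at day 10, above all day 0 libraries but with a wide spread, and did not pass (log2 fold change 2.85 ± 1.11, limma adjusted p = 0.0932). When the fit held the compared groups alone, the adjusted p of ACTA2 was 0.0253. ACTB (ENSSSCG00000007585), cytoplasmic beta actin, was at 499.5, 253 and 324 FPKM at day 0 and 1965, 2127 and 3726 FPKM at day 10 (log2 fold change 2.85 ± 0.52, limma adjusted p = 0.00233). ACTG1 (ENSSSCG00000028355), cytoplasmic gamma actin, was at 466, 371 and 302 FPKM at day 0 and 2474, 1912 and 4359 FPKM at day 10 (log2 fold change 2.87 ± 0.50, limma adjusted p = 0.00179). VIM (ENSSSCG00000011033), the intermediate filament of mesenchymal cells, was at 458, 382 and 286 FPKM at day 0 and 3498, 2236 and 4289.9 FPKM at day 10 (log2 fold change 3.13 ± 0.62, limma adjusted p = 0.00423). With median ratio scaling ACTG1 and VIM had adjusted p of 0.0655 and 0.0516. The lower members were TPM1 and TPM2. TPM1 (ENSSSCG00000004570), the tropomyosin of cardiac thin filaments and smooth muscle, was at 5528, 5219 and 5646 FPKM at day 0 and 477, 307 and 899.8 FPKM at day 10 (log2 fold change -3.42 ± 0.57, limma adjusted p = 0.00126). TPM2 (ENSSSCG00000005316) was at 1036, 1334 and 886 FPKM at day 0 and 353, 131 and 227 FPKM at day 10 (log2 fold change -2.28 ± 0.52, limma adjusted p = 0.00911).

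Genes of TGF-beta, BMP and WNT signalling rose in 8 of 30 cases and fell in 1, with a median of 1.44. Without day 0 replicate 2 the higher genes numbered 7, without day 10 replicate 2 or 3 they numbered 4, and with median ratio scaling 5. SFRP2 (ENSSSCG00000009004), a secreted modulator of WNT signalling, was at 0.172, 0.265 and 0.204 FPKM at day 0 and 134, 171 and 545 FPKM at day 10. On the fitted scale it had the largest positive fold change among the genes named (log2 fold change 7.59 ± 0.75, limma adjusted p = 2.84e-05). ID2 (ENSSSCG00000008645) and ID4 (ENSSSCG00000024312), targets of BMP signalling that block helix-loop-helix factors, rose together. ID2 was at 12.3, 2.89 and 6.04 FPKM at day 0 and 58.1, 76.8 and 47.7 FPKM at day 10 (log2 fold change 3.09 ± 0.60, limma adjusted p = 0.00365), and ID4 was at 1.9, 0.28 and 1.2 FPKM at day 0 and 16.8, 17.6 and 20 FPKM at day 10 (log2 fold change 3.25 ± 0.64, limma adjusted p = 0.00381). WNT5B (ENSSSCG00000000759), a WNT ligand, was at 6.84, 7.89 and 2.51 FPKM at day 0 and 75.3, 32.9 and 33.9 FPKM at day 10 (log2 fold change 2.84 ± 0.61, limma adjusted p = 0.00645), with an adjusted p of 0.0674 under median ratio scaling. FRZB (ENSSSCG00000016018), another secreted WNT antagonist, was the member that fell, at 12.2, 2.5 and 15.1 FPKM at day 0 and 0.433, 0.625 and 1.1 FPKM at day 10 (log2 fold change -2.42 ± 0.64, limma adjusted p = 0.0198). Without day 0 replicate 1 or 3 its limma adjusted p was 0.0632 and 0.0688, and without day 10 replicate 1 or 2 it was 0.0679 and 0.0621.

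The insulin-like growth factor axis held 5 higher genes of 11 and 0 lower (5 higher and 1 lower without day 0 replicate 2, and 3 higher both without day 10 replicate 2 and with median ratio scaling). IGFBP4 (ENSSSCG00000017472), a binding protein that holds back the growth factors, was at 65.4, 59.2 and 38 FPKM at day 0 and 1338, 1034 and 1709 FPKM at day 10 (log2 fold change 4.63 ± 0.43, limma adjusted p = 1.77e-05). IGFBP6 (ENSSSCG00000000261), a binding protein with a preference for IGF2, was at 43.3, 147 and 31.9 FPKM at day 0 and 423, 1269 and 751 FPKM at day 10 (log2 fold change 3.62 ± 0.71, limma adjusted p = 0.00379), with an adjusted p of 0.0676 under median ratio scaling. PAPPA (ENSSSCG00000005498), the protease that cleaves IGFBP4, was at 0.147, 0 and 0.0747 FPKM at day 0 and 1.13, 7.2 and 7.0 FPKM at day 10 (log2 fold change 2.28 ± 0.50, limma adjusted p = 0.00758). Inhibitor and protease were thus higher in the same 3 libraries.

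Several of the genes that rose most belong to no list. AREG (ENSSSCG00000008963), the epidermal growth factor receptor ligand amphiregulin, was at 0.0592, 0 and 0.151 FPKM at day 0 and 1064, 117 and 47.4 FPKM at day 10, and day 10 replicate 1 was far above its companions (log2 fold change 7.42 ± 0.86, limma adjusted p = 9.45e-05). NTS (ENSSSCG00000000932), the peptide neurotensin, had 0 reads in all 3 day 0 libraries and stood at 219.7, 76.7 and 39.2 FPKM at day 10. It was at least 1087-fold higher with a floor of 3 reads over the group; the fitted value depends on the pseudocount (log2 fold change 6.46 ± 0.59, limma adjusted p = 1.58e-05). S100A6 (ENSSSCG00000021084), a calcium-binding protein, was at 8.16, 12.8 and 6.92 FPKM at day 0 and 1700.0, 1180.5 and 338 FPKM at day 10 (log2 fold change 6.46 ± 0.63, limma adjusted p = 2.48e-05). LIPG (ENSSSCG00000004509), endothelial lipase, was at 0.571, 0 and 0.377 FPKM at day 0 and 77.8, 71.1 and 198 FPKM at day 10 (log2 fold change 6.33 ± 0.62, limma adjusted p = 2.54e-05). PRRX2 (ENSSSCG00000005680), a homeobox factor of mesenchyme, was at 2.34, 9.36 and 2.93 FPKM at day 0 and 258, 284 and 269 FPKM at day 10 and lay in a narrow range at day 10 (log2 fold change 5.72 ± 0.47, limma adjusted p = 9.36e-06). On the other side, the peptide gene CCK (ENSSSCG00000011277), cholecystokinin, was at 632, 2479.5 and 1400.0 FPKM at day 0 and 1.01, 0.884 and 1.64 FPKM at day 10 and fell as far as the sarcomere genes (log2 fold change -9.24 ± 0.67, limma adjusted p = 3.63e-06).

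Inflammatory mediators rose in 14 of 24 cases and fell in 0, with a median of 2.64. The count was 14 as well without day 0 replicate 2 and with median ratio scaling. CCL2 (ENSSSCG00000017723), the chemokine that recruits monocytes, was at 24.6, 16.9 and 29.4 FPKM at day 0 and 3305, 2248 and 1304 FPKM at day 10 (log2 fold change 6.47 ± 0.50, limma adjusted p = 5.5e-06). CXCL8 (ENSSSCG00000008953), the neutrophil chemokine, was at 0.243, 0 and 1.24 FPKM at day 0 and 591, 113 and 20.2 FPKM at day 10, with day 10 replicate 1 highest and replicate 3 lowest (log2 fold change 6.32 ± 1.04, limma adjusted p = 0.00126). CXCL14 (ENSSSCG00000014310), a chemokine of stroma and epithelia, was at 1.09, 0 and 0.213 FPKM at day 0 and 93.9, 50.5 and 73.5 FPKM at day 10 (log2 fold change 5.71 ± 0.57, limma adjusted p = 3.07e-05). PTGES (ENSSSCG00000005688), which makes prostaglandin E2, was at 5.19, 6.6 and 2.85 FPKM at day 0 and 267, 343 and 188 FPKM at day 10 (log2 fold change 5.52 ± 0.50, limma adjusted p = 1.38e-05). IL18 (ENSSSCG00000015037), an interleukin processed by the inflammasome, was at 1.07, 1.27 and 1.61 FPKM at day 0 and 137, 205 and 48.8 FPKM at day 10 (log2 fold change 5.61 ± 0.64, limma adjusted p = 8.09e-05). All 5 were higher in every day 10 library than in any day 0 library. IL6, chosen after its values were seen, had 0 reads at day 0 and 235 at day 10, at least 79-fold higher with the same floor. Interferon response genes did not follow. Of 20 tested, 0 rose and 1 fell, with a median of -0.41, and without day 0 replicate 2 the lower genes numbered 8. The gene that fell, GBP2, a guanylate-binding protein, was at 11.5, 6.2 and 13 FPKM at day 0 and 3.15, 2.4 and 2.64 FPKM at day 10 (log2 fold change -1.54 ± 0.49, limma adjusted p = 0.0463). Its limma adjusted p was 0.116 and 0.128 without day 0 replicates 1 and 3 and 0.0892, 0.13 and 0.111 without day 10 replicates 1, 2 and 3.

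The oxidant response, the set of genes driven by NFE2L2, had the highest share of higher members among the lists outside the cell type markers, 13 of 17 higher and 1 lower, with a median of 2.97 (13 and 1 without day 0 replicate 2, and 12 and 1 with median ratio scaling). SRXN1 (ENSSSCG00000023298), sulfiredoxin, which repairs oxidized peroxiredoxins, was at 3.38, 0.282 and 1.47 FPKM at day 0 and 93.3, 83.6 and 59.9 FPKM at day 10 (log2 fold change 5.03 ± 0.58, limma adjusted p = 9.13e-05). PRDX1 (ENSSSCG00000003914), a peroxiredoxin, was at 31, 36.4 and 46.9 FPKM at day 0 and 1485, 1247 and 337 FPKM at day 10 (log2 fold change 4.47 ± 0.54, limma adjusted p = 0.000125). PGD (ENSSSCG00000003402), a dehydrogenase of the pentose phosphate pathway, was at 29.1, 25.2 and 28.1 FPKM at day 0 and 424, 210.5 and 321 FPKM at day 10 (log2 fold change 3.43 ± 0.44, limma adjusted p = 0.000213). The groups of all 3 were apart. EPHX1 (ENSSSCG00000010853), microsomal epoxide hydrolase, went the other way, at 68.1, 61.3 and 52 FPKM at day 0 and 4.16, 2.05 and 5.1 FPKM at day 10 (log2 fold change -3.74 ± 0.53, limma adjusted p = 0.000453). Among 6 aryl hydrocarbon receptor genes 3 rose (2 without day 0 replicate 2). CYP1A1 (ENSSSCG00000001906), the receptor's classical target, was at 0.103, 0 and 0.435 FPKM at day 0 and 131, 55.1 and 28.1 FPKM at day 10 (log2 fold change 5.69 ± 0.79, limma adjusted p = 0.000362). NQO1 (ENSSSCG00000002754), a quinone reductase on both lists, was at 12.2, 4.58 and 12.7 FPKM at day 0 and 167, 72 and 109 FPKM at day 10 (log2 fold change 3.46 ± 0.53, limma adjusted p = 0.000742).

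In the list of the unfolded protein and integrated stress responses 17 of 31 genes rose and 0 fell, with a median of 2.20 (16 higher and 1 lower without day 0 replicate 2). The higher genes numbered 10 with median ratio scaling, and 9 and 10 when day 10 replicates 1 and 3 were left out in turn. The leading members were amino acid synthesis genes controlled by ATF4. PHGDH (ENSSSCG00000006717), PSAT1 (ENSSSCG00000005287) and PSPH (ENSSSCG00000007748) encode the 3 enzymes of serine synthesis. PHGDH was at 2.49, 4.62 and 1.73 FPKM at day 0 and 121, 84.8 and 146 FPKM at day 10 (log2 fold change 4.94 ± 0.50, limma adjusted p = 3.61e-05). PSAT1 was at 3.4, 0.665 and 1.49 FPKM at day 0 and 152, 75.8 and 173 FPKM at day 10 (log2 fold change 5.59 ± 0.61, limma adjusted p = 6.16e-05). PSPH was at 2.93, 2.77 and 2.87 FPKM at day 0 and 104, 84.2 and 49.2 FPKM at day 10 (log2 fold change 4.31 ± 0.53, limma adjusted p = 0.000141). All steps of the pathway were higher in each day 10 library than in any at day 0. ASNS (ENSSSCG00000015340), asparagine synthetase, was at 3.92, 5.61 and 4.95 FPKM at day 0 and 93.5, 44.1 and 104 FPKM at day 10 (log2 fold change 3.73 ± 0.45, limma adjusted p = 0.000116). HSPA5 (ENSSSCG00000005601), the chief chaperone of the endoplasmic reticulum, did not pass, at 114, 11.2 and 124 FPKM at day 0 and 233, 193 and 521 FPKM at day 10 (log2 fold change 2.36 ± 0.85, limma adjusted p = 0.0731). Its groups did not overlap, and without day 0 replicate 3 its adjusted p was 0.0492.

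Heat shock and folding genes gave 4 higher and 3 lower of 33, near the background shares. HSPB8 (ENSSSCG00000009844), a small heat shock protein of muscle, was at 232, 124 and 202 FPKM at day 0 and 10.4, 1.72 and 3.75 FPKM at day 10 (log2 fold change -5.10 ± 0.56, limma adjusted p = 6.19e-05). DNAJB5 (ENSSSCG00000005297), a co-chaperone of heart, was at 33.3, 15 and 30.3 FPKM at day 0 and 2.08, 1.92 and 3.43 FPKM at day 10 (log2 fold change -2.92 ± 0.50, limma adjusted p = 0.00163). The count of higher genes went to 2 without day 0 replicate 2, to 1, 2 and 0 without day 10 replicates 1, 2 and 3, and to 1 with median ratio scaling, while 5 were lower without day 0 replicate 2.

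Genes of protein synthesis were higher on the deposited scale. Of 45 translation factor and tRNA synthetase genes 16 rose and 0 fell, with a median of 1.55 (17 higher and 1 lower without day 0 replicate 2, 8 higher without day 10 replicate 1, and 7 higher with median ratio scaling). EIF4A1 (ENSSSCG00000017957), the RNA helicase of initiation, was at 74.7, 46.4 and 54.6 FPKM at day 0 and 479, 259 and 505 FPKM at day 10 (log2 fold change 2.77 ± 0.41, limma adjusted p = 0.000586). CARS1 (ENSSSCG00000012857), cysteinyl-tRNA synthetase, was at 8.37, 8.81 and 4.4 FPKM at day 0 and 46.1, 48.6 and 78.8 FPKM at day 10 (log2 fold change 2.85 ± 0.46, limma adjusted p = 0.00104). WARS1 (ENSSSCG00000002516), the synthetase for tryptophan, was at 28.7, 20.8 and 21.6 FPKM at day 0 and 114, 103 and 222 FPKM at day 10 (log2 fold change 2.50 ± 0.41, limma adjusted p = 0.00129). GARS1 (ENSSSCG00000016677), the synthetase for glycine, was at 32, 11.2 and 21.1 FPKM at day 0 and 119, 121 and 298 FPKM at day 10 (log2 fold change 2.98 ± 0.50, limma adjusted p = 0.00143). Cytosolic ribosomal protein genes were called higher in 11 of 24 cases, with a median of 1.70, but in 0 of 24 with median ratio scaling. With that scaling and without day 0 replicate 2 and day 2 replicate 1, a setting chosen after seeing the data, it was 15. The count was 6, 18 and 6 without day 0 replicates 1, 2 and 3, and 4 and 6 without day 10 replicates 1 and 2. RPS12 (ENSSSCG00000004177), a protein of the small subunit, was at 996, 1064 and 1195 FPKM at day 0 and 7772, 6515 and 3777 FPKM at day 10 (log2 fold change 2.41 ± 0.49, limma adjusted p = 0.00447), with an adjusted p of 0.203 under median ratio scaling. Ribosomal protein genes have near-identical copies and may share reads.

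Protein breakdown genes moved little by count. Of 31 genes of muscle atrophy, autophagy and the lysosome 3 rose and 3 fell (4 and 5 without day 0 replicate 2, and 1 higher with median ratio scaling). TRIM63 (ENSSSCG00000027684), the muscle ubiquitin ligase that marks atrophy, was at 230.0, 118 and 251 FPKM at day 0 and 2.93, 0.292 and 2.05 FPKM at day 10 and fell (log2 fold change -6.26 ± 0.50, limma adjusted p = 6.6e-06). FBXO40 (ENSSSCG00000011885), another muscle ubiquitin ligase component, was at 53.2, 2.31 and 80.6 FPKM at day 0 and 0, 0.819 and 0.0708 FPKM at day 10 (log2 fold change -4.29 ± 0.95, limma adjusted p = 0.00815). GUSB (ENSSSCG00000007739), a lysosomal hydrolase, was at 14.2, 7.09 and 8.58 FPKM at day 0 and 42.2, 36.2 and 64.9 FPKM at day 10 and rose (log2 fold change 2.16 ± 0.44, limma adjusted p = 0.00477). Of 24 proteasome genes 2 were called higher, 0 with median ratio scaling and 0 without any of day 0 replicate 2 and the 3 day 10 replicates, and 5 without day 0 replicate 3.

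Hypoxia response genes rose in 9 of 18 cases and fell in 0, with a median of 2.30 (7 higher and 1 lower without day 0 replicate 2). The higher genes numbered 6 without each of the day 10 replicates and 7 with median ratio scaling. ANGPTL4 (ENSSSCG00000013599), a lipase inhibitor, was at 3.49, 3.72 and 3.31 FPKM at day 0 and 90, 175 and 179 FPKM at day 10, with a very narrow range at day 0 (log2 fold change 4.98 ± 0.42, limma adjusted p = 9.59e-06). CA12 (ENSSSCG00000004565), a membrane carbonic anhydrase, was at 0, 0 and 0.0715 FPKM at day 0 and 8.44, 14.4 and 31.7 FPKM at day 10 (log2 fold change 4.04 ± 0.72, limma adjusted p = 0.00203). P4HA1 (ENSSSCG00000010292), a prolyl hydroxylase subunit induced by low oxygen, was at 17.6, 1.17 and 29.5 FPKM at day 0 and 138, 109 and 232 FPKM at day 10 (log2 fold change 3.84 ± 0.79, limma adjusted p = 0.00528). PFKFB3 (ENSSSCG00000011133), which makes the activator of phosphofructokinase, was at 2.34, 0 and 1.25 FPKM at day 0 and 7.41, 36.1 and 33 FPKM at day 10 (log2 fold change 3.49 ± 0.70, limma adjusted p = 0.00442). VEGFA (ENSSSCG00000001695), the vascular growth factor, did not pass, at 41.7, 4.35 and 70.5 FPKM at day 0 and 68.7, 78.8 and 138 FPKM at day 10 (log2 fold change 1.86 ± 0.77, limma adjusted p = 0.111). Its groups overlapped, and without day 0 replicate 3 its adjusted p was 0.0351.

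Immediate early and growth transcription factors rose in 7 of 21 cases and fell in 0 (6 and 4 without day 0 replicate 2, and 4 higher without either of day 10 replicates 2 and 3). FOSL1 (ENSSSCG00000012967), a FOS family member, was at 0.707, 0.446 and 0.206 FPKM at day 0 and 12, 13.1 and 15.4 FPKM at day 10 (log2 fold change 3.32 ± 0.49, limma adjusted p = 0.000584). JUNB (ENSSSCG00000013735), of the JUN family, was at 51.5, 11.1 and 26.4 FPKM at day 0 and 231, 261 and 236 FPKM at day 10 (log2 fold change 3.23 ± 0.49, limma adjusted p = 0.000724). SOX9 (ENSSSCG00000017251), a factor of cartilage and fibrosis, was at 0.852, 0.0196 and 1.64 FPKM at day 0 and 5.4, 22.5 and 23.7 FPKM at day 10 (log2 fold change 3.18 ± 0.73, limma adjusted p = 0.00943). In the p53 and cell death list 3 of 9 rose (3 higher and 1 lower without day 0 replicate 2). CDKN2A (ENSSSCG00000005134), a locus of cell cycle inhibitors linked to senescence, was at 0, 0 and 0.181 FPKM at day 0 and 27.7, 43.5 and 22.7 FPKM at day 10 (log2 fold change 4.88 ± 0.47, limma adjusted p = 2.48e-05). PMAIP1 (ENSSSCG00000026454), a promoter of apoptosis, was at 1.84, 0.0826 and 1.97 FPKM at day 0 and 22.2, 13.5 and 15.6 FPKM at day 10 (log2 fold change 3.09 ± 0.52, limma adjusted p = 0.00149). All 26 genes of cell division and DNA replication tested had a log2 fold change above 0, with a median of 1.61, but 4 were called. That count was 1 without each of the day 0 replicates, 0 without day 10 replicate 1 or 3, 9 without day 10 replicate 2, and 0 with limma voom on recovered reads. Day 10 replicate 1 was the highest of its group for 22 of the 26. CCNB1 (ENSSSCG00000029326), the mitotic cyclin, was at 2.42, 0.296 and 2.62 FPKM at day 0 and 65.8, 6.75 and 29.7 FPKM at day 10 (log2 fold change 3.32 ± 0.95, limma adjusted p = 0.0299). Without day 0 replicate 2, day 10 replicate 1 or day 10 replicate 3 its adjusted p was 0.0586, 0.119 and 0.0948.

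Markers of cell types were summed per library to set the slices' makeup beside these results. The 8 cardiomyocyte markers, which include genes described above, summed to 72131, 158102 and 67525 FPKM at day 0 and to 152.2, 88.71 and 21.73 FPKM at day 10. The defining markers of heart muscle were thus abundant at day 0, while at day 10 they stood at 0.0882% of the day 0 mean, with all 8 called lower. The 8 fibroblast markers summed to 2105, 382.9 and 1944 FPKM at day 0 and to 1749, 4081 and 8499 FPKM at day 10, and the groups overlapped. Of these 8 genes 1 was called higher, COL1A2, and 1 lower. PI16 (ENSSSCG00000001570), a marker of resting adventitial fibroblasts, fell, at 50.5, 15 and 40.4 FPKM at day 0 and 0, 0.739 and 0.245 FPKM at day 10 (log2 fold change -4.65 ± 0.71, limma adjusted p = 0.000683). COL1A2 was at 183, 30.6 and 124 FPKM at day 0 and 184, 547 and 1467 FPKM at day 10 (log2 fold change 2.56 ± 0.82, limma adjusted p = 0.0473), and its adjusted p was 0.115 and 0.0634 without day 0 replicates 2 and 3 and 0.111 and 0.191 without day 10 replicates 2 and 3, and 0.0753 with median ratio scaling. Day 10 replicate 3 had the highest fibroblast sum of its group, and COL3A1 and COL1A2, which are also among the collagen genes above, made up most of it. The part of the fibroblast sum in the matrix results was not tested.

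Endothelial markers passed in 0 of 9 cases in limma and in limma voom, with 2 higher at an unadjusted p of 0.05. The number higher was 2 without day 0 replicate 1 and 1 with quantile normalization. The median was 0.33, and -0.34 with median ratio scaling and -0.29 without day 0 replicate 2. The markers summed to 656.6, 160.8 and 286.6 FPKM at day 0 and to 333.5, 1121 and 927.1 FPKM at day 10. Macrophage and myeloid markers were lower in 2 of 12 cases, 4 without day 0 replicate 2 and 1 without each of day 0 replicate 1, day 0 replicate 3 and day 10 replicate 2. CSF1R (ENSSSCG00000014441), the macrophage growth factor receptor, was at 25.9, 19.8 and 18.5 FPKM at day 0 and 2.82, 2.13 and 0.943 FPKM at day 10 (log2 fold change -2.96 ± 0.50, limma adjusted p = 0.00137). The myeloid sum was 386.1, 1022 and 322.3 FPKM at day 0 and 781.1, 222.4 and 42.36 FPKM at day 10. Day 10 replicate 1 thus had the highest myeloid sum of its group and day 10 replicate 3 the lowest, an order also seen in CXCL8, MMP9 and AREG. Of the inflammatory mediators tested, 9, 8 and 7 were highest in day 10 replicates 1, 2 and 3. Of the matrix protease and inhibitor genes the numbers were 7, 3 and 23, so most of these were highest in replicate 3. The neutrophil and mast cell sum was 6.218, 1.185 and 3.815 FPKM at day 0 and 239.4, 140.7 and 24.54 FPKM at day 10, and 1 of its 3 tested genes was called. That gene, S100A8 (ENSSSCG00000006590), a calcium-binding protein of neutrophils, was at 0, 0 and 0.236 FPKM at day 0 and 235, 124 and 3.21 FPKM at day 10 (log2 fold change 5.54 ± 1.2, limma adjusted p = 0.00699). It made up most of the sum in day 10 replicates 1 and 2 but not in replicate 3. The part of these cells in the inflammatory and protease results was not tested.

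Among 11 smooth muscle and pericyte markers 1 rose (TAGLN) and 3 fell, and 2 were higher and 2 lower without day 10 replicate 1. DES (ENSSSCG00000020785), desmin, which cardiomyocytes also express, was at 3011, 6907 and 1893 FPKM at day 0 and 27.9, 2.6 and 34.1 FPKM at day 10 (log2 fold change -7.79 ± 0.92, limma adjusted p = 0.000105). KCNJ8 (ENSSSCG00000000573), a potassium channel subunit of pericytes, was at 75.2, 43.5 and 117 FPKM at day 0 and 5.0, 3.37 and 7.05 FPKM at day 10 (log2 fold change -3.63 ± 0.76, limma adjusted p = 0.00584). Of 6 Schwann and neuronal markers 4 rose, with or without day 0 replicate 2. TUBB3 (ENSSSCG00000002639), a tubulin of neurons and dividing cells, was at 0.162, 0.0445 and 0.137 FPKM at day 0 and 65.9, 13.3 and 14.1 FPKM at day 10 (log2 fold change 4.45 ± 0.64, limma adjusted p = 0.000501). Adipocyte markers were called lower in 4 of 5 cases, 2 without each of day 0 replicate 1, day 0 replicate 2 and day 10 replicate 1. PLIN4 (ENSSSCG00000013512), a lipid droplet protein also made in muscle, had 3584 reads at day 0 and 0 at day 10, at least 1184-fold lower with the floor of 3 reads. Lymphocyte markers were lower in 3 of 5 cases (1 without day 10 replicate 1 or 3) and higher in 1. Without day 0 replicate 2, 2 of 4 tested were lower and 1 higher. GZMA (ENSSSCG00000016903), a granzyme of cytotoxic lymphocytes, was the higher gene, at 0.613, 2.22 and 0.817 FPKM at day 0 and 7.85, 65.4 and 23.2 FPKM at day 10 (log2 fold change 3.52 ± 0.70, limma adjusted p = 0.00435). The haemoglobin gene HBB (ENSSSCG00000014725), a trace of blood, was at 12.4, 36.5 and 12.2 FPKM at day 0 and 0.0933, 0 and 0 FPKM at day 10 and fell (log2 fold change -4.19 ± 0.84, limma adjusted p = 0.00454).

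The design sets day 10 apart from the earlier days, so day 10 was also compared with day 6 in the same fit. Of the 12625 genes 619 (4.90%) differed, 241 (1.91%) higher at day 10 and 378 (2.99%) lower, and the median over all genes was -0.43. The count fell to 295, 308 and 282 without day 6 replicates 1, 2 and 3 and to 356 and 270 without day 10 replicates 1 and 2. Between day 0 and day 6 the median over all genes was 0.88, and the share of all genes called there is not given here. Of 25 thin filament and Z-disc genes 16 were lower at day 10 than at day 6 and 0 higher, and 3 had been called lower between day 0 and day 6. Of 8 cardiomyocyte markers 7 were lower than at day 6, and 2 had been called lower between day 0 and day 6. These markers summed to 16197 and 2313 FPKM at day 2 and to 12991, 29153 and 14222 FPKM at day 6. Day 2 replicate 2 thus lay below every day 6 library. MYH6 stood at 2063, 5295 and 2096 FPKM at day 6, between the day 0 and day 10 values (log2 fold change from day 6 of -10.05, limma adjusted p = 3.16e-06). TNNT2 was at 2299.8, 5173 and 2222 FPKM at day 6 (log2 fold change from day 6 of -8.49, limma adjusted p = 4.18e-05). MYL3 was at 4045, 8832 and 4895 FPKM at day 6 (log2 fold change from day 6 of -8.19, limma adjusted p = 0.000109). In these 3 genes every day 6 library lay far above every day 10 library. ACTA1 was at 2845, 5251 and 3974 FPKM at day 6 (log2 fold change from day 6 of -8.00, limma adjusted p = 1.55e-05). CKMT2 was at 263, 477 and 276 FPKM at day 6 (log2 fold change from day 6 of -8.14, limma adjusted p = 3.16e-06).

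Matrix, contractile and stress genes named above were set beside their day 6 values too. TAGLN was at 21, 87.5 and 12.8 FPKM at day 6, below every day 0 library (log2 fold change from day 6 of 6.13, limma adjusted p = 0.00017). ACTA2 was at 4.2, 17.4 and 0.863 FPKM at day 6 (log2 fold change from day 6 of 6.11, limma adjusted p = 0.00697). Both contractile genes had their lowest group mean at day 6 and their highest at day 10. SFRP2 was at 0.883, 1.19 and 2.84 FPKM at day 6 (log2 fold change from day 6 of 6.54, limma adjusted p = 0.000265). AREG was at 0.835, 0.132 and 0.102 FPKM at day 6 (log2 fold change from day 6 of 7.11, limma adjusted p = 0.000422). NTS was at 0.175, 0 and 0 FPKM at day 6 (log2 fold change from day 6 of 6.39, limma adjusted p = 7.03e-05). Of 16 collagen genes 3 were higher at day 10 than at day 6, with a median of 2.21, and 0 had passed in limma between day 0 and day 6, with 1 higher at an unadjusted p of 0.05. COL3A1 was at 238, 226 and 116 FPKM at day 6 (log2 fold change from day 6 of 3.71, limma adjusted p = 0.0296). POSTN was at 16.1, 6.03 and 12.2 FPKM at day 6 (log2 fold change from day 6 of 4.52, limma adjusted p = 0.0101). The oxidant response and inflammatory lists had medians of 2.33 and 2.00 between day 0 and day 6, beside 0.88 over all genes. Their counts of calls for those days have no share of all genes beside them. Of 17 oxidant response genes 0 differed between day 6 and day 10 in limma and in limma voom, with 4 higher and 1 lower at an unadjusted p of 0.05, and 11 had been called higher between day 0 and day 6. Of 24 inflammatory mediators 4 were higher and 2 lower at day 10 than at day 6, and 9 had been called higher between day 0 and day 6. HSPA5 was at 3528, 708 and 1359 FPKM at day 6, above its day 10 values, though the difference did not pass (log2 fold change from day 6 of -2.39, limma adjusted p = 0.136). The comparisons of day 6 and day 10 with day 0 share the day 0 libraries, and their values are given side by side only.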

How the data were processed

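RNA of pig heart slices was isolated with Trizol and made into TruSeq libraries, per the labels' protocols. The authors deposited 1 FPKM value per gene and library for 16319 genes. Bowtie 0.12.2 and mm8, a mouse build, appear in the submitters' processing notes without a role, whereas the table lists pig Ensembl gene IDs. How reads were counted, on which annotation, and how those matching more than 1 gene were treated is not given in the sources used here. Symbols for 9686 genes came from a reference table of gene names, and 6633 genes had none.

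Whole reads behind the FPKM values were recovered from their common step, within a tolerance of 0.01. These steps were checked on simulated data and returned the reads of 99.97% of 15862 genes. Tests covered the 12625 genes whose mean FPKM over the series reached 1. Values were log2(FPKM + 1). A linear model with 4 groups and all 11 libraries was fitted with limma 3.58.1 (eBayes with trend, 7 residual degrees of freedom) in R 4.3.3, tested two-sided and adjusted by Benjamini-Hochberg over all genes tested, with a threshold of 0.05. Comparisons of day 10 with day 0 and with day 6 were read from the same fit, and their SE is the same, since each group holds 3 libraries.

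The members and the 52 gene lists were chosen with earlier results of these data known. The lists got no test of their own. Genes named were a panel of 26, of which 18 were tested. MYH7, TTN, ATP2A2, PLN, NPPA, SLC2A1, COL1A1 and HMOX1 were not analysed here. To these came the 12 higher and 12 lower genes of largest log2 fold change whose higher group averaged 5 FPKM or more and whose libraries did not overlap, the 4 genes of smallest p in each list with at least 3 calls plus up to 2 in the other direction, the called genes of other lists, and 5 higher and 5 lower genes for day 6. Some genes so chosen are not reported here. For a gene with 0 reads in a group, a floor of 3 reads over the group was used. Such bounds reflect counting error alone, as reads without molecular identifiers need not be independent molecules.

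Replicate numbers were checked as pairs by the correlation of residuals. It was -0.376, 0.178 and 0.212 for day 0 and day 10, which did not pair them, and 0.275, 0.250 and 0.180 for day 6 and day 10, where every pair was above 0.1. The labels do not tie a number to an animal. Alternatives were other pseudocounts, filters, scalings and limma settings, a replicate block, limma voom on the recovered reads, the compared groups only, and leaving out each library. Leaving out day 0 replicate 2 and day 2 replicate 1 together was chosen after seeing the data.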

Additional observations from a re-analysis of the deposited data

Results flagged for a closer look

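Of the 619 genes that differed between day 6 and day 10, 10 are set out here. They are the 5 higher and 5 lower genes of largest difference under the naming rule. A difference between these days means that their changes from the shared day 0 libraries differed too. The test was the day 10 against day 6 comparison in limma, and the values are log2 fold changes between day 10 and day 6. The lower genes encode sarcomere proteins and mitochondrial creatine kinase: -10.05 for MYH6, -8.49 for TNNT2, -8.19 for MYL3, -8.14 for CKMT2 and -8.00 for ACTA1. Their change between day 0 and day 6 was -2.39, -2.02, -2.17, -1.50 and -2.04, in the same order.

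The higher genes were AREG at 7.11, SFRP2 at 6.54, NTS at 6.39, TAGLN at 6.13 and ACTA2 at 6.11. TAGLN and ACTA2 had been at -2.50 and -3.26 between day 0 and day 6, so their fitted values went down and then up. For ACTA2 the first of these did not pass (limma adjusted p = 0.0721). These genes were chosen for the size of their difference. All 10 kept their direction and their call under each alternative run, but genes picked for large differences are likely to do so.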

How the results depend on the processing

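No named gene changed direction. The split of calls did: 1508 higher and 787 lower became 911 and 1244 with median ratio scaling and 1356 and 1427 with quantile normalization. List medians that changed sign included glycolysis and glycogen (0.04, and -0.69 with median ratio scaling), leucine-rich proteoglycans (0.65, and -0.08), endothelial markers (0.33, and -0.34), and matricellular genes (0.58, and -0.37 without day 0 replicate 2). The count of genes that differed between day 10 and day 0, 2295 as reported, was 5469 with array weights and 1310 with only the compared groups in the fit. It was 3449 without day 0 replicate 2 and day 2 replicate 1, and 3675 when median ratio scaling was added, both chosen after seeing the data. Leaving out a library gave 1462 to 2705, and a replicate block 2107. The share of the 2295 calls kept ran from 56.6% with only the compared groups to 99.2% with array weights, and 0 turned. For day 10 against day 6, 619 as reported, the count was 1130 with quantile normalization, 5958 with array weights, 1903 with only the compared groups, 2559 without the same pair of libraries and 2159 with median ratio scaling added. Leaving out a library gave 270 to 468, and a replicate block 504. Of 193 named genes called against day 0, 139 passed in every alternative in which they were tested. Of the calls and misses of the 198 named genes, 34 calls ended without day 10 replicate 3, 28 with only the compared groups and 26 with median ratio scaling. The cause of these differences was not tested. Fold changes of genes near 0 FPKM are limited by depth and by the pseudocount.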

Other observations

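Some gene groups of the same comparison belong beside those above. Cholesterol synthesis and uptake genes were higher in 5 of 25 cases and lower in 1 at day 10 (2 higher without each of the day 10 replicates, and 4 higher and 3 lower without day 0 replicate 2). TM7SF2, a sterol reductase, was the lower gene, at 9.77, 20.9 and 9.43 FPKM at day 0 and 0.292, 0.521 and 0.412 FPKM at day 10 (log2 fold change -3.26 ± 0.50, limma adjusted p = 0.000684). Integrin, laminin and basement membrane genes gave 2 higher and 3 lower of 24. The higher genes numbered 4 without day 0 replicate 1 or day 10 replicate 1, and 1 without day 0 replicate 2, day 10 replicate 2 or day 10 replicate 3. SGCA, a sarcoglycan that ties the muscle membrane to its surroundings, was at 98.4, 294 and 127 FPKM at day 0 and 0.99, 0.57 and 0.957 FPKM at day 10 (log2 fold change -6.41 ± 0.58, limma adjusted p = 1.38e-05).

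Vascular growth and endothelial signalling genes were higher in 4 of 26 cases and lower in 0, and 2 were higher without day 10 replicate 2 or 3. Without day 0 replicate 2, 4 were higher and 1 lower. ESM1, a proteoglycan of sprouting endothelium, was at 1.82, 0 and 0.552 FPKM at day 0 and 39.1, 44.9 and 46.5 FPKM at day 10 (log2 fold change 4.76 ± 0.89, limma adjusted p = 0.00284). Its groups did not overlap.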
